A study of Mus musculus with 6 samples.

Results

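The genes described here make sterols, move them into and within the cell, or set the activity of SREBP2, the transcription factor that controls the pathway. They were 31 genes listed by symbol for their place in the pathway, with earlier results of these data known. Of these, 28 had a probe set carrying that symbol alone, out of 19938 genes so named on the array, and all 28 were bright enough to be tested among 14953 genes. Mbtps2, which encodes the second protease that releases SREBP2, was represented only by a probe set shared with Yy2, and no probe set carried the symbol of Acat2 or Soat1, so these 3 genes were not analysed here.

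The cells were mouse pre-B cells of strain C57BL/6 transformed with BCR-ABL1, the fused tyrosine kinase found in Ph+ leukaemia, and all carried floxed Inpp5d (Inpp5d fl/fl), the gene of the lipid phosphatase SHIP1. RNA on 3 arrays came from cells transduced with PMIP-CRE-ERT2, a tamoxifen-activated Cre recombinase, and RNA on 3 arrays from cells transduced with PMIP-ERT2, which lacks Cre. Both groups had received 0.5 µM 4-hydroxytamoxifen for 2 days, and puromycin-resistant cells were harvested. No group with Cre but without floxed alleles, and none without tamoxifen, is labelled, so Cre activity and loss of Inpp5d cannot be told apart, and as separate cultures are not stated, a p-value here reflects the spread among these samples, which may be technical.

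Inpp5d itself had log2 values of 13.37, 13.34 and 13.34 in the arrays labelled CRE-ERT2, against 13.20, 13.21 and 13.17 in the ERT2 arrays. The signal of the targeted gene was therefore not lower where Cre was given. All 3 arrays labelled CRE-ERT2 lay above the ERT2 arrays, with a log2 fold change of 0.16 that did not pass (limma adjusted p = 0.0545). The position of the Inpp5d probe set relative to the floxed exons is not known here. The groups are accordingly named by their labels, and higher or lower refers to the arrays labelled CRE-ERT2 against the ERT2 arrays. The array labelled CRE-ERT2 3 correlated with ERT2 array 3 at r = 0.9967 across probe sets, more closely than with CRE-ERT2 arrays 1 and 2 (0.9938 and 0.9950). Of the pre-B markers, 7 of 8 were measured, with mean log2 values between 11.58 and 14.33 and none called. Myeloid, T and NK, erythroid and stromal markers other than Lyz2 had mean log2 values between 6.16 and 9.23. No T and NK, erythroid or stromal marker was called. The summed linear signal of the stromal list was 1361 to 1612 in the arrays labelled CRE-ERT2 and 1277 to 1344 in the ERT2 arrays. The summed signals of the T and NK list and of the erythroid list overlapped between the groups. Of 6 myeloid markers, 3 were bright enough to be tested. Of these only Lyz2 was called (10.05, 9.85 and 10.21 in the arrays labelled CRE-ERT2, against 9.25, 9.38 and 9.10 in the ERT2 arrays). Csf1r, Itgam and Cd14 were too dim to be tested. Among them only Csf1r had groups that did not overlap (7.36, 7.49 and 7.33 in the arrays labelled CRE-ERT2, against 7.21, 7.24 and 7.23). The summed linear signal of the whole myeloid list was 1895 to 2020 in the arrays labelled CRE-ERT2 and 1397 to 1474 in the ERT2 arrays, and without Lyz2 it was 839 to 970 in those labelled CRE-ERT2 and 801 to 848 in the ERT2 arrays. The part of the myeloid and stromal signals in the results was not tested.

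Cholesterol is built from acetyl-CoA through mevalonate and isoprenoid phosphates, which are joined to squalene, cyclised to lanosterol and trimmed to cholesterol. When sterols in the endoplasmic reticulum are low, SCAP carries SREBP2 to the Golgi, where proteases release its active domain to switch on nearly every enzyme of the route. When sterols are plentiful, INSIG proteins hold SCAP and SREBP2 in the endoplasmic reticulum. Lymphoid cells raise the pathway when they grow, since each division needs new membrane and the isoprenoids also anchor small GTPases.

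In the arrays labelled CRE-ERT2, enzymes of all stages of sterol synthesis fell, with Insig1 and the sterol carrier gene Stard4, while Npc1, which lets cholesterol out of lysosomes, was higher. Of the 28 genes, 15 fell and 1 rose at a limma adjusted p under 0.05, and 12 did not pass. Over all genes tested, 7.62% were called, 4.13% as lower and 3.5% as higher. The falls were moderate, with log2 fold changes between -0.24 and -0.55 and a median of -0.37 among the 15. The median over all 28 was -0.26, beside 0.03 over all genes tested. The 3 arrays labelled CRE-ERT2 all lay below the 3 ERT2 arrays for 19 of the 28 and all above for 3. The same was true of 17.7% and 20.7% of all genes tested. In these bulk samples, fewer cells that express a gene and less RNA per cell cannot be told apart.

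**Figure D1:**
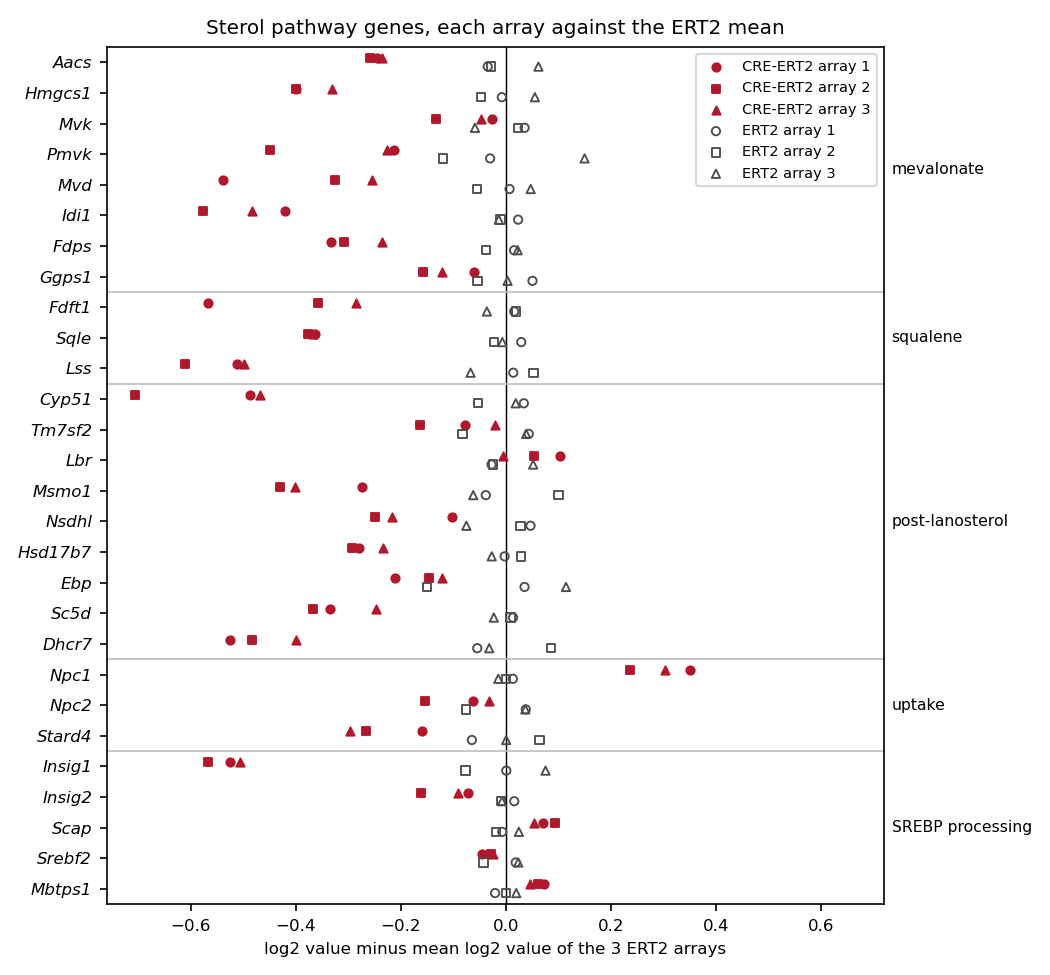
Each point is the log2 value of 1 array minus the mean of the 3 ERT2 arrays (horizontal axis) for 1 of 28 genes (rows, grouped by step); filled red symbols are the arrays labelled CRE-ERT2 and open grey symbols the ERT2 arrays, with the shape giving the replicate number. For the 15 genes that fell, all 3 red points lie left of all 3 grey points, whereas for Npc1 all 3 lie to the right.

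The shift was present on each of the 3 arrays labelled CRE-ERT2. Measured against the mean of the ERT2 arrays, the median deviation of the 28 genes was -0.23, -0.28 and -0.24 on arrays labelled CRE-ERT2 1, 2 and 3, and 0.01, -0.02 and 0.01 on ERT2 arrays 1, 2 and 3. For all genes tested, the medians on the arrays labelled CRE-ERT2 were 0.04, 0.0042 and 0.01, and those on the ERT2 arrays lay between -0.00073 and 0.00087. The ERT2 medians lie near 0 by construction, since these 3 arrays form the mean used. The profile of CRE-ERT2 array 3 as a whole was closest to those of ERT2 arrays 1 and 3 (r = 0.9963 and 0.9967), with 0.9942 for ERT2 array 2. On CRE-ERT2 array 3, 19 of the 28 genes lay below all 3 ERT2 arrays, against 21 and 22 on CRE-ERT2 arrays 1 and 2. Over all 14953 genes tested, 3929 lay below all 3 ERT2 arrays on CRE-ERT2 array 3, against 4333 and 5880 on arrays 1 and 2. Differences on these arrays also varied with brightness. All genes tested were split into 10 equal bins of mean signal, of which 7 held any of the 28. The median log2 fold change in those 7 lay between -0.06 and 0.09. The 0.09 was that of the dimmest of them, with 1 of the 28, and the median was negative in every brighter bin. Between 2.21% and 8.56% of the genes in each of those 7 bins were called lower. Of the 28, 24 lay below the median of their own bin.

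The largest falls were those of Cyp51, Lss, Insig1, Idi1, Dhcr7 and Fdft1, and the promoters of 5 of them, those in the RefSeq table used, are printed here because these genes moved together. That of Hmgcs1 is added after its match was seen, as the single window among the members with the sterol element core. Each runs 5′ to 3′ on the gene's strand, from 250 bases before the annotated start to 50 after it (RefSeq, GRCm38.p6), and capitals mark matches to any of the 4 motifs described after them. Cyp51 is chr5:4104648-4104947, minus strand, Lss chr10:76531355-76531654, plus strand, and Insig1 chr5:28071162-28071461, plus strand. Idi1 is chr13:8885356-8885655, Dhcr7 chr7:143822917-143823216, the most upstream of its 3 annotated starts, and Hmgcs1 chr13:119690101-119690400, all plus strand.
Cyp51: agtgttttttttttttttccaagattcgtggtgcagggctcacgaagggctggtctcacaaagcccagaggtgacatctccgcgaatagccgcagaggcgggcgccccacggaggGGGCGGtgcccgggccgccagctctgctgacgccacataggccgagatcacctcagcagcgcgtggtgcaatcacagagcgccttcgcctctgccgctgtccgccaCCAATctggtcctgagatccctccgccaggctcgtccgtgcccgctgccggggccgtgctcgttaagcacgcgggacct
Lss: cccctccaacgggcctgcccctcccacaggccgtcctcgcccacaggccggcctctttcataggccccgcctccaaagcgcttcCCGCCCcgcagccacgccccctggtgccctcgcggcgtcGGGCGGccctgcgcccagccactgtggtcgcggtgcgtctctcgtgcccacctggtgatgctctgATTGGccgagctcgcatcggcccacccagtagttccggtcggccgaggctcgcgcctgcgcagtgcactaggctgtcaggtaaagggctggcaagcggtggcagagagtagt
Insig1: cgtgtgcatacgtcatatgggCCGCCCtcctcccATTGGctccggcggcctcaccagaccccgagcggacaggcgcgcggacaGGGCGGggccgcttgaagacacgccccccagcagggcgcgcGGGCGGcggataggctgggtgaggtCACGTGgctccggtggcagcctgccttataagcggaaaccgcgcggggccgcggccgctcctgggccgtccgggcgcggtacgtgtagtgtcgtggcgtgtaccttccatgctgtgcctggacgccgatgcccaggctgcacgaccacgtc
Idi1: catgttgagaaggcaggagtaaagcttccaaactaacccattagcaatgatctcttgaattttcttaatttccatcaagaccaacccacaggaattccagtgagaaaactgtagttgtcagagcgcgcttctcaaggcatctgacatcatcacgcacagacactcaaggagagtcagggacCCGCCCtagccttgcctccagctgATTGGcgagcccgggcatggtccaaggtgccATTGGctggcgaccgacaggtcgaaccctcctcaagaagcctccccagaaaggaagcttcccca
Dhcr7: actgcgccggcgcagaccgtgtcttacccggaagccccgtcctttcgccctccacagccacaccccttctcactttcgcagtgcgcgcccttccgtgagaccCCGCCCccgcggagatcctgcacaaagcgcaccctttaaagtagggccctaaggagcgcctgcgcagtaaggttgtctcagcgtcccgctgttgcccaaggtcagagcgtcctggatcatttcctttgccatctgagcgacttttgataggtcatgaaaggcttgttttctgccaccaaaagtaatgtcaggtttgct
Hmgcs1: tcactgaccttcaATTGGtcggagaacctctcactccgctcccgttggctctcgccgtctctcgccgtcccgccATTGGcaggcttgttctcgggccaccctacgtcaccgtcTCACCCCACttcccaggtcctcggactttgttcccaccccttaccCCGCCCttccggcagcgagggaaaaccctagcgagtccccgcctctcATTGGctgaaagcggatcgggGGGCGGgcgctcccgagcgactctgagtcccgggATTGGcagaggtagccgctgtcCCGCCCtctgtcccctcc

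SREBPs bind sterol regulatory elements and some E-boxes, usually beside sites of NF-Y and Sp1, and these 4 motifs were searched on both strands. Windows were found for 26 of the 31 genes, 11 of them called lower, 12 measured but not passed and 3 not analysed on the arrays. The element core TCACNCCAC was in 1 of the 11 and 0 of the 12, against 1.48% of 11823 tested genes with a window and 1.24% of all 32851 windows. That match, TCACCCCAC, began at position -137 from the annotated start of Hmgcs1. The NF-Y box CCAAT was in 10 of the 11 and 10 of the 12, against 41.4% of tested genes and 37.4% of all windows. The Sp1 box GGGCGG was also in 10 of the 11 and 10 of the 12, against 63.2% of tested genes and 35.7% of all windows. The E-box CACGTG was in 4 of the 11, Insig1, Dhcr7, Sc5d and Hsd17b7, and in 1 of the 12, Scap, against 11.0% of tested genes and 7.15% of all windows. In the windows printed, the match nearest upstream of the start was an NF-Y box at position -29 in Cyp51, -62 in Lss and -14 in Idi1. It was the E-box at -101 in Insig1, and an Sp1 box at -148 in Dhcr7 and -24 in Hmgcs1. Dhcr7 had its E-box and NF-Y matches only in the windows of its other starts. A match in such a window is a description of its letters, not evidence of binding.

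In the mevalonate stage, which ends with farnesyl and geranylgeranyl phosphates, 5 of 8 measured genes fell, 0 rose and 3 did not pass, with a median log2 fold change of -0.29. Hmgcs1 encodes the synthase that condenses acetyl-CoA and acetoacetyl-CoA to HMG-CoA, and its promoter is among those shown. It had log2 values of 11.21, 11.21 and 11.28 in the arrays labelled CRE-ERT2, against 11.60, 11.56 and 11.67 in the ERT2 arrays. The groups did not overlap, and the log2 fold change was -0.38 ± 0.048 (SE, adjusted p = 0.00649). Idi1, which interconverts the 2 isomers of isopentenyl diphosphate, fell most of this stage. It had 11.85, 11.69 and 11.79 in the arrays labelled CRE-ERT2, against 12.29, 12.26 and 12.25 in the ERT2 arrays (-0.49 ± 0.052, adjusted p = 0.00348, 1.41-fold lower). The second Idi1 probe set differed by -0.51.

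Mvd, the decarboxylase that makes isopentenyl diphosphate, had log2 values of 9.63, 9.84 and 9.91 in the arrays labelled CRE-ERT2, against 10.17, 10.11 and 10.21 in the ERT2 arrays. It fell (-0.37 ± 0.075), with the lowest value on CRE-ERT2 array 1. Fdps, which makes farnesyl diphosphate, averaged 11.89 ± 0.051 in the arrays labelled CRE-ERT2 and 12.19 ± 0.033 in the ERT2 arrays (SD, n = 3 each), a log2 fold change of -0.29 ± 0.047 (SE). Aacs, the cytosolic synthetase that feeds ketone bodies into lipid synthesis, fell by 0.25 ± 0.046 on the log2 scale.

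The kinases of the stage did not pass. Pmvk, the phosphomevalonate kinase, averaged 8.83 ± 0.133 in the arrays labelled CRE-ERT2 and 9.12 ± 0.138 in the ERT2 arrays (SD, n = 3 each). Its groups did not overlap, but the spread was wide (-0.30 ± 0.087, SE, adjusted p = 0.0677). Mvk, mevalonate kinase, had overlapping groups and a log2 fold change of -0.07, with a 95% interval from -0.18 to 0.05. Ggps1, which lengthens farnesyl to geranylgeranyl diphosphate for protein prenylation, had -0.11 (95% interval -0.23 to 0.00054, adjusted p = 0.151).

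All 3 genes of the squalene stage fell. Fdft1, squalene synthase, commits farnesyl diphosphate to sterols, and it had log2 values of 11.50, 11.71 and 11.79 in the arrays labelled CRE-ERT2, against 12.09, 12.09 and 12.04 in the ERT2 arrays. The groups were clear of each other and the log2 fold change was -0.40 ± 0.072 (SE), with -0.46 for its second probe set. Sqle, squalene epoxidase, a flux-limiting oxygenase, had 11.66, 11.65 and 11.66 in the arrays labelled CRE-ERT2, against 12.05, 12.00 and 12.02 in the ERT2 arrays. Its replicates were the tightest of the 28 genes in the arrays labelled CRE-ERT2 (SD 0.0066), and it fell by 0.37 ± 0.042 on the log2 scale (adjusted p = 0.00448). Lss, which closes the sterol rings, had 10.84, 10.74 and 10.85 in the arrays labelled CRE-ERT2, against 11.36, 11.40 and 11.28 in the ERT2 arrays, 1.45-fold lower.

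**Figure D2:**
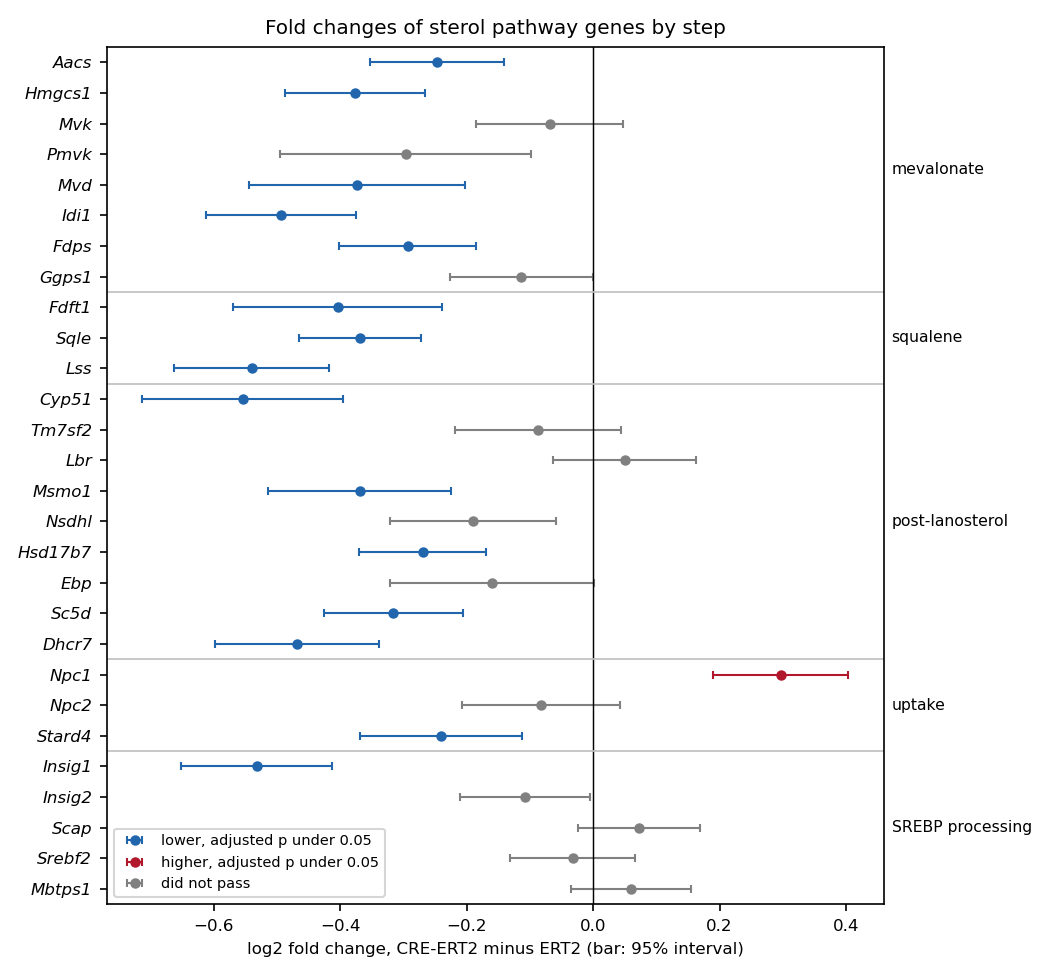
Log2 fold change of CRE-ERT2 minus ERT2 arrays (horizontal axis) for the 28 genes by step, with bars for the 95% interval of the limma fit; blue genes were lower and the red gene higher at an adjusted p under 0.05, and grey genes did not pass. Enzymes of the first 3 steps lie left of 0 except Lbr, and in the SREBP step only Insig1 is blue.

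After lanosterol, 5 of 9 genes fell, 0 rose and 4 did not pass, with a median log2 fold change of -0.27. Cyp51, which removes the 14-alpha methyl group, showed the largest fall of the 28. It had log2 values of 11.04, 10.82 and 11.06 in the arrays labelled CRE-ERT2, against 11.56, 11.48 and 11.55 in the ERT2 arrays (-0.55 ± 0.069, SE, adjusted p = 0.00591, 1.47-fold lower). Array 2 was the lowest of the arrays labelled CRE-ERT2 for this gene, and the groups lay far apart. Dhcr7, the reductase of the last step to cholesterol, had 10.18, 10.22 and 10.31 in the arrays labelled CRE-ERT2, against 10.65, 10.79 and 10.67 in the ERT2 arrays (-0.47 ± 0.057, adjusted p = 0.00544).

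The C4 demethylation genes Msmo1, Hsd17b7 and Nsdhl were unequal in their calls, though their differences were not compared with each other. Msmo1, the methyl oxidase, averaged 11.59 ± 0.084 in the arrays labelled CRE-ERT2 and 11.95 ± 0.088 in the ERT2 arrays (SD, n = 3 each) and fell by 0.37 ± 0.063 (SE). Hsd17b7, the ketoreductase, fell by 0.27 ± 0.044. For Nsdhl, the dehydrogenase, the groups did not overlap and the log2 fold change was -0.19 (adjusted p = 0.0719). Sc5d, the C5 desaturase, fell by 0.32 ± 0.048, with 3 values between 11.18 and 11.30 in the arrays labelled CRE-ERT2, against 11.52 to 11.56 in the ERT2 arrays. Ebp, the isomerase, had -0.16 (adjusted p = 0.152), and ERT2 array 2, at 11.00, lay within the range of the arrays labelled CRE-ERT2.

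The C14 reductase step is served by a pair of genes, Tm7sf2 and Lbr, and neither passed. Tm7sf2 had 8.79, 8.70 and 8.84 in the arrays labelled CRE-ERT2, against 8.91, 8.78 and 8.90 in the ERT2 arrays. Lbr, which also encodes the lamin B receptor of the inner nuclear membrane, had 13.42, 13.37 and 13.31 in the arrays labelled CRE-ERT2, against 13.29, 13.29 and 13.37 in the ERT2 arrays. Both pairs of groups overlapped, with log2 fold changes of -0.09 and 0.05. Lbr was thus the sole enzyme gene of the 20 in these 3 steps with a positive value, which turned to -0.05 when arrays were centred on their medians, a step that moved the median of all genes by -0.10.

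Among genes of uptake and transport, Npc1 and Stard4 moved in opposite directions. Npc1, the lysosomal membrane protein that exports cholesterol taken up with lipoproteins, had log2 values of 11.55, 11.44 and 11.51 in the arrays labelled CRE-ERT2, against 11.22, 11.20 and 11.19 in the ERT2 arrays. All 3 lay above the ERT2 arrays, and it rose by 0.30 ± 0.047 (SE, adjusted p = 0.0148, 1.23-fold higher). Its soluble partner Npc2, which hands cholesterol to NPC1 in the lysosome, had -0.08 with overlapping groups (95% interval -0.21 to 0.042). Stard4, a cytosolic sterol carrier, had 10.73, 10.62 and 10.59 in the arrays labelled CRE-ERT2, against 10.82, 10.95 and 10.89 in the ERT2 arrays, and fell by 0.24 ± 0.056 (adjusted p = 0.0412). Npc1 was called in 9 of 15 alternatives. Among the others, its call ended after median centring (0.19, adjusted p = 0.0504) and without CRE-ERT2 array 1 (0.0653) or ERT2 array 1 (0.0826), 2 (0.0628) or 3 (0.0502), and its adjusted p over all 15 alternatives ranged from 0.00121 to 0.0826. Stard4 kept its call in 6 of 15 alternatives and in 1 of 6 with an array left out, that without CRE-ERT2 array 3.

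In the control machinery, 1 of 5 measured genes fell, 0 rose and 4 did not pass. Insig1, both a target of SREBPs and their brake, had 11.17, 11.13 and 11.19 in the arrays labelled CRE-ERT2, against 11.70, 11.62 and 11.77 in the ERT2 arrays. The 3 arrays labelled CRE-ERT2 were closely grouped and far below the others (-0.53 ± 0.052, SE, adjusted p = 0.00229, 1.45-fold lower). Insig2, its paralogue, which is not a target of SREBPs in the way Insig1 is, had 10.41, 10.32 and 10.39 in the arrays labelled CRE-ERT2, against 10.50, 10.47 and 10.47 in the ERT2 arrays. Those groups did not overlap either, but the difference was -0.11 (unadjusted p = 0.0412, adjusted p = 0.135).

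Srebf2, which encodes SREBP2 itself, had 12.13, 12.15 and 12.16 in the arrays labelled CRE-ERT2, against 12.20, 12.14 and 12.20 in the ERT2 arrays. The groups overlapped, and the 95% interval of its log2 fold change ran from -0.13 to 0.067 around -0.03. Scap, the escort protein gene, had 12.48, 12.50 and 12.46 in the arrays labelled CRE-ERT2, against 12.40, 12.39 and 12.43 in the ERT2 arrays (0.07, adjusted p = 0.245). Mbtps1, the gene of the site-1 protease, had 0.06 (adjusted p = 0.323). Both lay entirely above the ERT2 arrays by small amounts, with values of -0.03 and -0.04 after median centring. Of Insig2, Scap, Srebf2 and Mbtps1, 0 were called by limma, and 1, Insig2, was lower at an unadjusted p under 0.05, as were 14.4% of all genes tested, while 19.0% were higher.

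The calls of 7 genes, Hmgcs1, Idi1, Sqle, Lss, Cyp51, Dhcr7 and Insig1, held in each of 15 alternatives of filter, scaling, model or arrays, at the threshold of 0.05. All 15 genes that fell kept a negative value in each of them. The count called was 8 without CRE-ERT2 array 1 and 7, 8 and 10 without ERT2 arrays 1, 2 and 3, in place of 16. It was 15 and 16 without CRE-ERT2 arrays 2 and 3. The counts over all 14953 genes tested moved too. They were 136 without CRE-ERT2 array 1 and 116, 194 and 347 without ERT2 arrays 1, 2 and 3, in place of 1140. Without CRE-ERT2 arrays 2 and 3 they were 525 and 3042. Aacs, Fdft1 and Mvd lost their calls without CRE-ERT2 array 1 or any of the 3 ERT2 arrays, with adjusted p between 0.0502 and 0.125 in those fits. Fdps, Hsd17b7 and Sc5d lost theirs in 3 such fits each, and Msmo1 in those without ERT2 arrays 1 and 2.

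**Figure D3:**
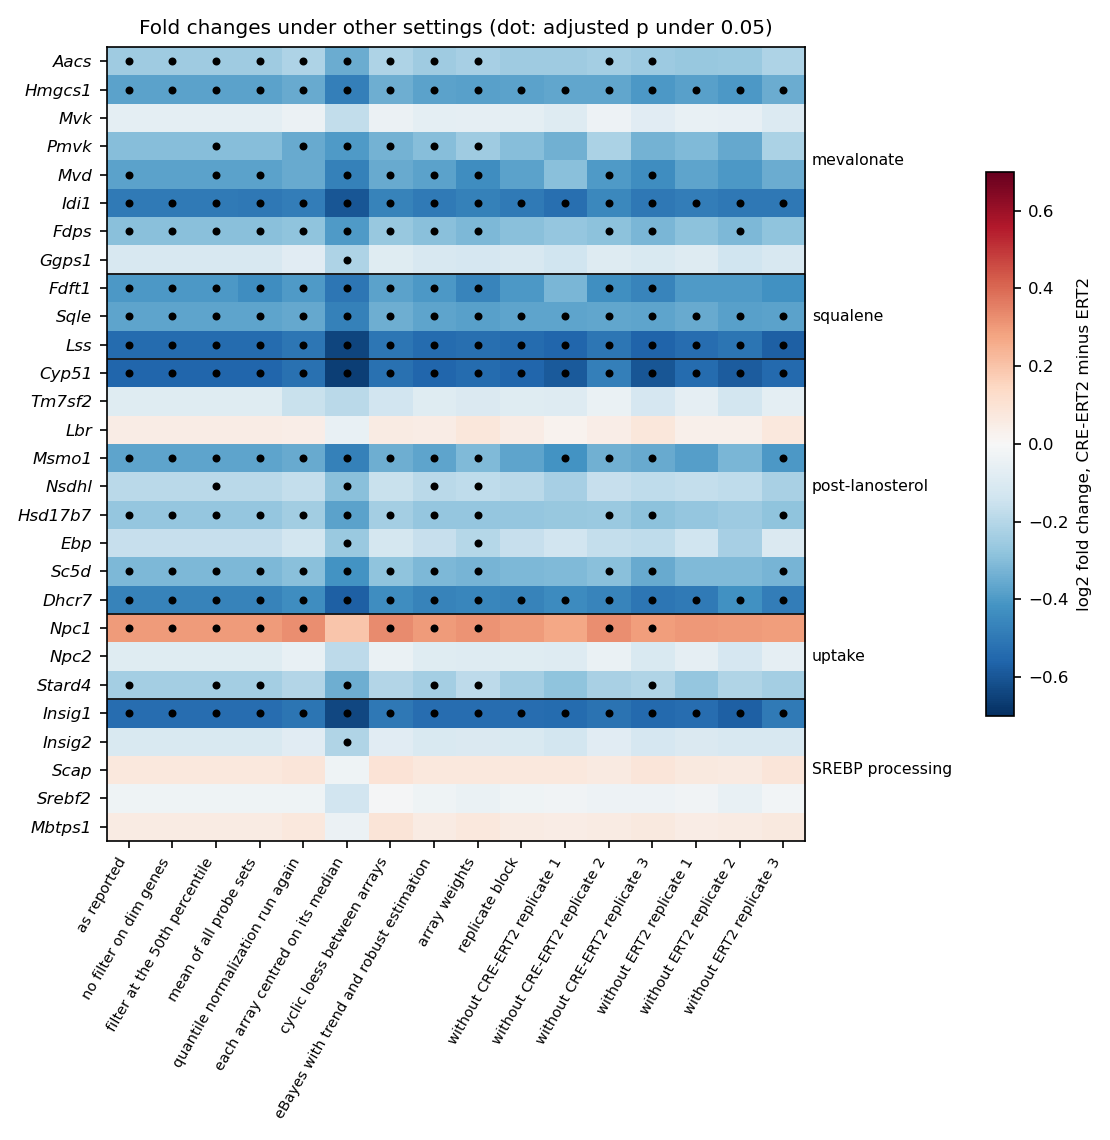
Log2 fold change of CRE-ERT2 minus ERT2 arrays (colour) for the 28 genes (rows) as reported and under 15 alternatives (columns); a dot marks an adjusted p under 0.05. Hmgcs1, Idi1, Sqle, Lss, Cyp51, Dhcr7 and Insig1 carry a dot in every column, while the other genes that fell lack one without ERT2 array 1 and with the replicate number as a block.

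The 5 neighbouring gene lists were read beside the pathway, and fatty acid synthesis held the most calls. Of 16 fatty acid genes, 7 fell, 0 rose and 9 did not pass, with a median log2 fold change of -0.19. The share called lower was 43.75%, beside 4.13% of all genes tested. Srebf1, which encodes the SREBP form that favours fatty acid genes, had 10.44, 10.38 and 10.43 in the arrays labelled CRE-ERT2, against 10.76, 10.81 and 10.80 in the ERT2 arrays. It fell by 0.37 ± 0.044 (SE, adjusted p = 0.00536), while Srebf2 did not pass; the difference between them was not tested. The other genes named by the smallest p were the desaturase genes Scd1 (-1.34), Fads2 (-0.77) and Scd2 (-0.60). Each of these 3 values lay farther from 0 than that of any of the 28 sterol genes, a difference that was not tested, while Fasn, fatty acid synthase, and Acly, which supplies cytosolic acetyl-CoA to both routes, had -0.15 and -0.05 and did not pass.

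Of 15 genes that use isoprenoids, 2 fell, 0 rose and 13 did not pass, with a median of -0.13. The share called lower was 13.3%, beside 4.13% of all genes tested. Rabggtb, a subunit of the Rab geranylgeranyl transferase, fell by 0.28 ± 0.053 (SE), and Nus1, a subunit of the dolichol-making transferase, fell by 0.22 ± 0.056 (adjusted p = 0.0479). Of 11 genes of the ubiquitin machinery that degrades sterol enzymes and INSIG in the endoplasmic reticulum, 0 were called by limma, with a median of -0.11. At an unadjusted p under 0.05, 5 of these 11 were lower and 1 was higher, a threshold that 14.4% and 19.0% of all genes tested passed as lower and as higher. The smallest p was that of Erlin1, which encodes an endoplasmic reticulum membrane protein of this machinery (-0.26 ± 0.075, SE, adjusted p = 0.0680). The ubiquitin ligase gene Rnf145 had 12.02, 12.01 and 12.03 in the arrays labelled CRE-ERT2, against 12.17, 12.14 and 12.17 in the ERT2 arrays, and did not pass (-0.14, adjusted p = 0.0708).

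Of 11 genes of the COPII coat that carries SCAP and SREBPs out of the endoplasmic reticulum, 1 fell, the GTPase gene Sar1a (-0.20 ± 0.048, SE, adjusted p = 0.0441), 0 rose and 10 did not pass, with a median of -0.02. Of 18 other genes of sterol transport and storage, 2 fell, 0 rose and 16 did not pass, with a median of 0.01. The shares called lower were 9.09% of the COPII genes and 11.1% of these 18, beside 4.13% of all genes tested. Differences between these shares were not tested. Scarb1, the receptor for high-density lipoprotein, had 10.98, 10.98 and 11.06 in the arrays labelled CRE-ERT2, against 11.31, 11.45 and 11.36 in the ERT2 arrays (-0.37 ± 0.052, adjusted p = 0.00915). Scp2, a lipid transfer protein gene, fell by 0.35 ± 0.088, with one array labelled CRE-ERT2 at 8.34 and the others at 8.63 and 8.68, against 8.84 to 8.96 in the ERT2 arrays. Sar1a, Nus1 and Scp2 lay close to the threshold. None of the COPII genes was called without CRE-ERT2 array 1 or 2 or any ERT2 array, and 0 of the isoprenoid-using genes without CRE-ERT2 array 1 or any ERT2 array. Few of all 14953 genes tested were called in those fits. The counts were 136 and 525 without CRE-ERT2 arrays 1 and 2, and 116, 194 and 347 without ERT2 arrays 1, 2 and 3, in place of 1140.

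**Figure D4:**
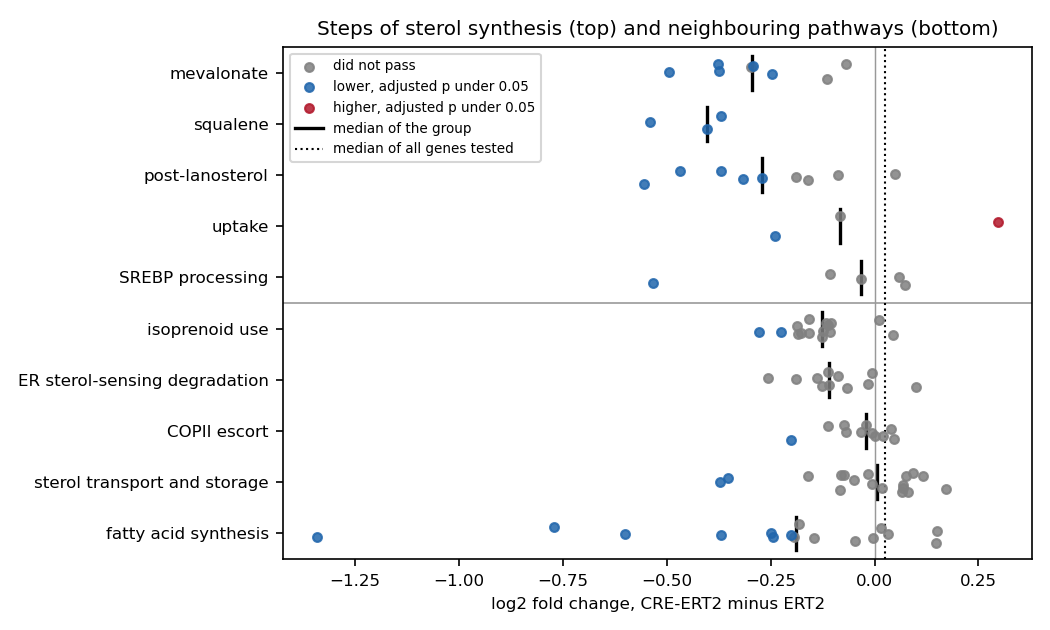
Log2 fold change of CRE-ERT2 minus ERT2 arrays (horizontal axis) for each gene of the 5 steps (above the line) and of 5 neighbouring gene lists (below it); black bars are group medians, the dotted line is the median of all genes tested (0.03), and colours mark genes called lower or higher at an adjusted p under 0.05. Medians of -0.29, -0.40 and -0.27 for the 3 synthesis steps lie left of those of the neighbouring lists, of which fatty acid synthesis is the lowest at -0.19.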

How the data were processed

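The deposited values are log2 expression, 1 value per probe set on each of 6 arrays (35556 probe sets). Per the submitters' processing notes, RMA and Partek 6.5 were used, with neither order nor settings; those notes give no genome build. Probe sets with exactly 1 gene symbol (21789) were kept, with the highest-mean probe set per gene, and genes below the 25th percentile of gene means (a log2 value of 7.35) were left out. The test was limma's moderated fit (version 3.58.1, R 4.3.3; lmFit, eBayes, two-sided, CRE-ERT2 minus ERT2), with Benjamini-Hochberg adjustment over 14953 genes and a threshold of 0.05. Errors after ± are SE of that fit unless marked SD. These are array signals without read depth, and precision is limited by having 3 arrays in each group. The members, the neighbouring lists and the alternatives were chosen with earlier results of these data known. Text names the members, Inpp5d, the cell markers and up to 4 genes per neighbouring list with the smallest p; Fasn and Acly were chosen after their values were seen. Some listed genes are not reported here. Alternatives varied the filter, probe-set rule, scaling, eBayes options, array weights, replicate block, threshold and the arrays included. The procedure was tested on simulated data. Tables and figures used Python 3.11.15, pandas 2.3.3 and matplotlib 3.10.9.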

Additional observations from a re-analysis of the deposited data

How the results depend on the processing

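Alternatives changed how many genes were called more than how far they moved. Single values of the 28 genes kept their direction and their status, called or not, in 375 cases, which include genes called in neither fit. They lost a call in 56, gained one in 14 and changed sign in 3. The 56 losses all fell on the 16 genes called in the main fit. The 3 sign changes came from centring each array on its median: Lbr -0.052, Scap -0.030 and Mbtps1 -0.043. Centring moved the median of all genes by -0.10 and the median of the 28 to -0.36, with mevalonate -0.40, squalene -0.51, post-lanosterol -0.37, uptake -0.18 and SREBP processing -0.13. It gave 3020 genes called in place of 1140 (92.6% lower, in place of 54.1%), 1 in uptake, 2 in SREBP processing, 10 isoprenoid-using, 6 degradation and 2 COPII genes. Renewed quantile normalization gave medians of -0.23 (members) and -0.24 (post-lanosterol) and 1 uptake gene, and cyclic loess -0.23, -0.24, -0.0068 (SREBP processing) and 1. Over all genes tested, quantile normalization gave 994 calls and cyclic loess 1171.

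Without a filter on dim genes, 437 genes in all were called, with 1 in uptake, 1 isoprenoid-using, 0 COPII, 1 transport and 4 fatty acid genes. The 50th percentile filter gave 3 degradation genes, with 1563 of 9969 genes tested called in all. With trend and robust estimation in eBayes there were also 3 degradation genes, and 2147 genes in all. Array weights gave 3993 in all, 5 isoprenoid-using, 3 degradation and 5 transport genes. At a threshold of 0.01, 143 genes in all and 7 of the 28 were called (2 mevalonate, 2 post-lanosterol, 0 uptake), with 0 isoprenoid-using, 0 COPII, 1 transport and 4 fatty acid genes.

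With the replicate number as a block, 147 genes in all (in place of 1140) and 7 of the 28 (in place of 16) were called. These were 2 mevalonate, 2 squalene, 2 post-lanosterol, 0 uptake and 1 SREBP processing genes, in place of 5, 3, 5, 2 and 1, and Npc1 had an adjusted p of 0.0704. The block gave 0 isoprenoid-using, 0 COPII, 0 transport and 4 fatty acid genes, in place of 2, 1, 2 and 7. Deviations of same-numbered arrays correlated at 0.069, -0.17 and -0.40, and 1 of the 3 arrays labelled CRE-ERT2 correlated best with its own number. CRE-ERT2 array 2 correlated best with ERT2 array 3 (0.43), and CRE-ERT2 array 3 with ERT2 array 1 (0.28). Deviations from a mean of 3 arrays sum to 0 within a group, so these values cannot settle whether the numbers pair the samples. With each array left out, counts ranged from 116 to 3042 for all genes, 7 to 16 for the 28, 2 to 5 for mevalonate, 2 to 5 for post-lanosterol, 2 to 3 for squalene and 0 to 2 for uptake. They ranged from 0 to 2 for isoprenoid use, 0 to 1 for degradation, 0 to 1 for COPII, 0 to 3 for transport and 4 to 7 for fatty acid genes. Medians ranged from -0.27 to -0.23 for the 28, -0.33 to -0.25 for mevalonate and -0.053 to -0.020 for SREBP processing. Such fits hold fewer arrays, and the cause of other changes was not tested. The array design could not vary background correction, since probe-level files were not used here.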
